A study of Saccharomyces cerevisiae with 8 samples.

Results

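The proteasome is the large protease that degrades ubiquitinated proteins, and the mRNA levels of its genes were measured in budding yeast. The genes described were 45 of the 7127 genes of the count table, chosen by name as subunits, assembly factors, associated proteins or the regulator of the complex. They were 14 subunits of the core particle, 10 of the base, 9 of the lid, 8 assembly factors, 3 associated proteins and RPN4. RNA was sequenced from strain CRN (genotype MATa ade2 his3 ura3, with PPN1 replaced by CgTRP1) and from CRN/PPN2, the same strain carrying PPN2 on the plasmid pMB1. Both strains therefore lack PPN1, a polyphosphatase gene. PPN2, also a polyphosphatase gene, was driven by the constitutive TDH3 promoter on a centromeric derivative of pRS316. The 4 groups, with 2 libraries each, were CRN in YPD (16 h), CRN in YPD with 20 mM KOH (40 h), CRN/PPN2 in YPD (16 h) and CRN/PPN2 in YPD with 20 mM KOH (25 h). CRN/PPN2 cells from the KOH medium went straight into Trizol LS, whereas the other 3 groups were frozen first and broken in a French press, so in comparisons with that group the lysis, the hours of culture and the condition cannot be told apart.

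The core particle is a barrel of alpha and beta subunits with the proteolytic sites inside. The base of the regulatory particle holds a ring of ATPases that unfold substrates, and the lid holds Rpn11, which removes ubiquitin. In yeast, Rpn4 is the transcription factor that activates proteasome genes through the PACE motif in their promoters, and the Rpn4 protein is itself degraded by the proteasome, so that fewer active proteasomes leave more Rpn4. An mRNA level says nothing about the amount of Rpn4 protein, which was not measured here.

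The 8 libraries held 796548 to 5004823 counts, and the smallest were those of CRN/PPN2 with KOH, at 1559324 and 796548. Of the 7127 genes, 5430 passed the filter of at least 10 CPM (counts scaled to a common library total) in at least 2 libraries, and all 45 proteasome genes were among them. PPN1 had 0 or 1 count in every library. PPN2 stood at 206 to 220 CPM in the CRN libraries and 5997 to 6854 CPM in those of CRN/PPN2, as the labels say. URA3 stood at 235.3 to 301.5 CPM in CRN and 1155 to 1894 CPM in CRN/PPN2. No group carried the plasmid without PPN2, so in every comparison of the strains the plasmid and PPN2 cannot be told apart. Levels are CPM scaled with TMM factors, which correct for the composition of a library, and changes were tested with edgeR's quasi-likelihood test with Benjamini-Hochberg adjustment over all 5430 genes. A gene is called where its adjusted p was under 0.05. Nothing in the sources states that the 2 libraries of a group were grown as separate cultures. The p-values therefore reflect only how far these samples spread. In bulk RNA, fewer cells with a transcript and less of it per cell cannot be told apart.

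Most promoters of the subunit genes hold the PACE motif. The motif is already known from proteasome promoters, so its frequency here is a description and not a test. The PACE motif was searched as GGTGGCAAA on both strands, from 250 bases before to 50 bases after the start codon, in the RefSeq genome R64. It lay in 28 of the 45 promoters (62.2%), against 43 of the 5943 other protein-coding genes (0.724%) and 71 of all 5988 (1.19%). By group, the motif was in 12 of 14 core genes, 8 of 10 base genes, 7 of 9 lid genes and 1 of 3 genes of associated proteins. It was found in 0 of 8 assembly factor genes and not in RPN4. The 28 motifs began 84 (RPT6) to 183 (PUP3) bases before the start codon. With the shorter core of the motif, GTGGCAAA, which overlaps it, 32 of the 45 promoters (71.1%) had a match against 2.39% of all genes. The additional matches were PRE5, PUP1, RPN8 and UBP6, which all read AGTGGCAAA. Among the subunits, RPN10, RPN13 and SEM1 had no match to the core. Of its 32 matches, 23 were on the gene's own strand and 9 on the other. The sites are shown for the genes described most fully, so that the shared letters and the differing flanks can be compared. Each is read 5′ to 3′ along the motif, with the matched letters in capitals.
PRE3 (chrX:435037-435061, + strand): cggaatccGGTGGCAAAaaagggaa
PRE8 (chrXIII:86843-86867, - strand): cttattaaGGTGGCAAAattgtccc
PUP3 (chrV:349513-349537, - strand): gcactgccGGTGGCAAAaaagtgca
PRE2 (chrXVI:732186-732210, + strand): agcaaaagGGTGGCAAAacgaagaa
PRE7 (chrII:141152-141176, + strand): actcaaagGGTGGCAAAaacaagcg
PRE5 (chrXIII:901554-901578, + strand): tattatagAGTGGCAAAattaaaaa
PUP1 (chrXV:631893-631917, - strand): cccggccgAGTGGCAAAataccaaa
RPT1 (chrXI:174050-174074, - strand): agttttcgGGTGGCAAAattcggta
RPT6 (chrVII:411354-411378, - strand): gcgagcgaGGTGGCAAAagttgtaa
RPN1 (chrVIII:164840-164864, - strand): tgttttacGGTGGCAAAaggcgagc
RPN2 (chrIX:220803-220827, - strand): ttattttcGGTGGCAAAactggata
RPN11 (chrVI:153261-153285, + strand): acctccaaGGTGGCAAAttcacaag
RPN9 (chrIV:1322088-1322112, + strand): tttcatccGGTGGCAAAagtaagaa
RPN8 (chrXV:817087-817111, - strand): gatacctcAGTGGCAAAtcgttact
ECM29 (chrVIII:39945-39969, + strand): cttttcttGGTGGCAAAaaaaaggt
UBP6 (chrVI:164958-164982, - strand): ttacttgcAGTGGCAAAattcgaaa
RPN1 and PRE7 carry the complete motif although their difference in YPD described next was not called. RPN8, PRE5, PUP1 and UBP6 differ from the others in the first letter of the match. A match is a description of the letters and not evidence of binding.

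The first question was how the proteasome genes differed between CRN/PPN2 and CRN in ordinary YPD medium. Transcripts of nearly the whole particle were higher in CRN/PPN2: 32 of the 45 genes were called higher and 0 lower, where 4.13% of all genes tested were called higher and 2.38% lower. The 45 genes had a median change of 1.46-fold (log2 0.54), against 1.00-fold over all genes, and 37 had an unadjusted p under 0.05. The libraries of CRN/PPN2 lay above those of CRN for 39 of the 45 genes and below for 2 (IRC25 and HSM3), and the corresponding shares of all genes were 21% and 19.6%. The 33 subunits summed to 7917 and 7577 CPM in CRN and to 12180 and 11016 in CRN/PPN2. The differences were of like size across them, with log2 fold changes from 0.27 (RPN13) to 0.88 (PRE3) and an SD of 0.14 over the 33 subunits, against an SD of 0.34 over all genes tested.

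**Figure D1:**
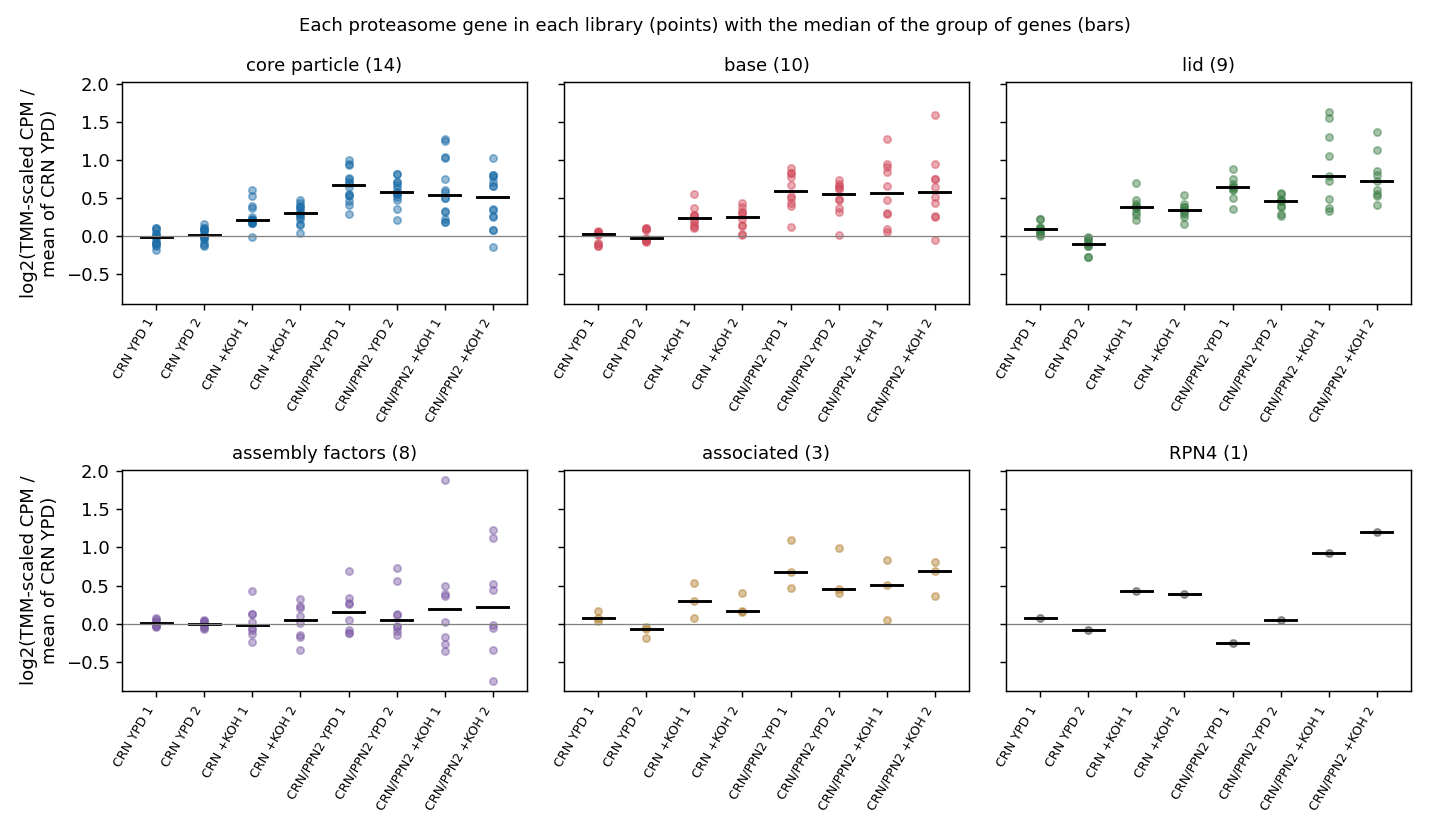
Log2 of the TMM-scaled CPM of each gene relative to its mean in CRN in YPD (vertical axis), for the 8 libraries (horizontal axis), with 1 panel for each group of genes, points for genes and bars for the median over the genes of a panel. Core, base and lid genes sit above the CRN YPD level in both CRN/PPN2 YPD libraries, and they scatter more widely in both CRN/PPN2 +KOH libraries.

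In the core particle 13 of 14 genes were called higher, with a median of 1.51-fold. PRE3, the caspase-like beta subunit, had 173 and 147 CPM in CRN and 306 and 281 in CRN/PPN2. All CRN/PPN2 values were above those of CRN, and the change was 1.84-fold (log2 fold change 0.88 ± 0.12, adjusted p = 0.000144). PRE8, an alpha subunit, had 153 and 154 CPM in CRN and 307 and 246 in CRN/PPN2, 1.79-fold higher (log2 fold change 0.84 ± 0.13, adjusted p = 0.00049). Of the genes of the other proteolytic subunits, PRE2 (chymotrypsin-like) rose by 0.67 and PUP1 (trypsin-like) by 0.52 on the log2 scale. All 7 alpha genes were called, with log2 fold changes from 0.55 (PRE6) to 0.84 (PRE8). The exception among the beta genes was PRE7, with 170.3 and 199 CPM in CRN and 246 and 237 in CRN/PPN2: its groups did not overlap either, but its adjusted p was 0.0614 (log2 fold change 0.39).

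In the base, the 6 ATPase genes RPT1 to RPT6 were all called higher, by 0.52 (RPT5) to 0.78 (RPT1) on the log2 scale. RPT1 had 284 and 273 CPM in CRN and 494 and 467 in CRN/PPN2, which is 1.72-fold higher (log2 fold change 0.78 ± 0.12, adjusted p = 0.000319). RPT6 had 213 and 249.9 CPM in CRN and 429 and 356 in CRN/PPN2, 1.69-fold higher (log2 fold change 0.76 ± 0.13, adjusted p = 0.00114). Of the 4 base genes that encode no ATPase, only the scaffold gene RPN2 was called (log2 0.50). The scaffold and receptor gene RPN1 and the ubiquitin receptor genes RPN10 and RPN13 had log2 fold changes of 0.36, 0.39 and 0.27 with adjusted p from 0.124 to 0.26. RPN13 was the subunit with overlapping groups, at 153 and 139 CPM in CRN and 207 and 148 in CRN/PPN2.

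All 9 lid genes were called higher. RPN11, the deubiquitinase of the lid, had 147 and 133 CPM in CRN and 258 and 206 in CRN/PPN2 and changed most, by 1.65-fold (log2 fold change 0.73 ± 0.12, adjusted p = 0.0011). RPN9 had 256 and 216 CPM in CRN and 359 and 330.4 in CRN/PPN2, 1.46-fold higher (log2 fold change 0.55 ± 0.12, adjusted p = 0.00849). The other 7 lid genes rose by 0.44 (RPN12) to 0.58 (RPN8), so that the lid was the subcomplex with the narrowest spread of changes in this comparison (SD 0.08 on the log2 scale, against 0.14 in the core and 0.18 in the base).

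Of the 8 assembly factors, which help to build the particle and are not part of the finished one, 1 was called higher: UMP1, which is needed for maturation of the core. It had 92.1 and 85.0 CPM in CRN and 143 and 147 in CRN/PPN2, 1.65-fold higher (log2 fold change 0.72 ± 0.14, adjusted p = 0.00344). PBA1, a chaperone of the alpha ring, had 38.4 and 40.8 CPM in CRN and 48.0 and 58.5 in CRN/PPN2 and was not called (log2 fold change 0.42 ± 0.14, adjusted p = 0.0965). NAS2, NAS6 and HSM3, chaperones of the base, had log2 fold changes of 0.23, 0.19 and -0.08, and ADD66, IRC25 and POC4, further core chaperones, had -0.07, -0.08 and -0.05. The median over all 8 factors was 0.07, against 0.60 in the core. Among the associated proteins, ECM29, which holds core and regulatory particle together, had the largest change of the 45 genes: 103 and 92.9 CPM in CRN and 208 and 194 in CRN/PPN2, or 2.06-fold (log2 fold change 1.04 ± 0.11, adjusted p = 1.12e-05). UBP6, a deubiquitinase bound to the base, had 215 and 169 CPM in CRN and 307 and 253 in CRN/PPN2 (log2 fold change 0.55 ± 0.12, adjusted p = 0.00712). BLM10, an activator of the core, had 141 and 133 CPM in CRN and 190.2 and 188 in CRN/PPN2, and its adjusted p was 0.0535 at a log2 fold change of 0.46.

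RPN4, the activator of these genes, was not called in YPD. It had 80.7 and 72.6 CPM in CRN and 64.2 and 79.3 in CRN/PPN2, and the groups overlapped (log2 fold change -0.10 ± 0.14, adjusted p = 0.748). Letters to which regulators of RPN4 are known to bind were searched in the same windows on both strands. TCCGCGGA, a site of Pdr1 and Pdr3, was in 1 of the 45 windows (0.200% of all windows). That match, in RPN11, began at base 43 of the coding region and not before the gene. TTAGTCA, a Yap1 site, was in 0 (3.62%), and AGGGG, the stress response element of Msn2 and Msn4, in 8 (21.6%). The window of RPN4 itself, from 250 bases before to 50 bases after the start codon, held none of these exact letters. A window of 500 bases before it, chosen after seeing the data, held none either. The gap to the next gene upstream of RPN4 is 954 bases, so neither window covered all of it. Other forms of these sites and sites of Hsf1 were not searched. Whether RPN4 has other sites for its regulators was therefore not tested. RPN4 lies on chromosome IV from 415113 to 416708 on the minus strand. Of the 6 genes of regulators of RPN4 listed (HSF1, YAP1, PDR1, PDR3, MSN2 and MSN4), 1 was called in this comparison: YAP1, the transcription factor of the oxidative stress response, with 173 and 159 CPM in CRN and 263 and 245 in CRN/PPN2 (log2 fold change 0.61 ± 0.11, adjusted p = 0.00196).

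**Figure D2:**
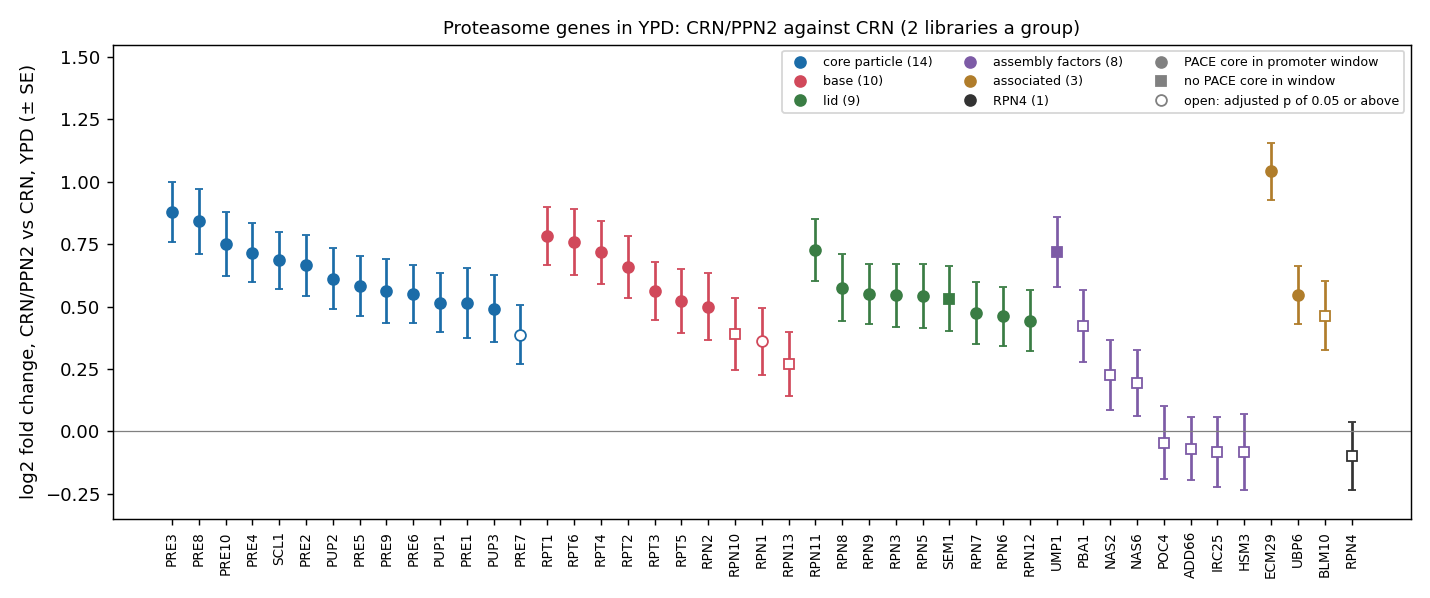
Log2 fold change of CRN/PPN2 against CRN in YPD with its SE (vertical axis) for the 45 genes (horizontal axis), coloured by group of genes; filled symbols had an adjusted p under 0.05, and squares have no PACE core in the promoter window. Filled circles run through core, base ATPases and lid, except that PRE7 is an open circle and SEM1 a filled square. Of the 8 assembly factors 7 are open squares, as is RPN4, and UMP1 is a filled square.

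The calls in YPD were next set beside the promoter motif. Of the 32 proteasome genes with the core in the promoter window, 30 were called higher, and the exceptions were PRE7 and RPN1. Of the 13 without it, 2 were called higher, SEM1 and UMP1. The medians of the 2 sets were 0.56 and 0.23 on the log2 scale. The 13 genes include all 8 assembly factors, whose levels were low, so motif, group of genes and level cannot be told apart here. All 33 subunits, with or without the core, had a positive log2 fold change. Outside the proteasome genes the share was smaller: of 104 other genes tested with the core, 18 were called higher (17.3%), and of 42 with the whole motif 11 were (26.2%), against 3.21% of the 5178 without the core. Some of those promoters are shared with a divergent proteasome gene. Without the genes whose sites all lay in a proteasome gene's window, 9 of 35 with the whole motif were called higher (25.7%). These 9 were not all genes of the ubiquitin system, and only some that are also in the gene lists are named here. CUZ1 encodes a protein that binds Cdc48 and the proteasome (log2 0.87, adjusted p = 0.000438). CDC48 encodes the segregase that extracts ubiquitinated proteins (log2 0.60), and UBA1 the ubiquitin-activating enzyme (log2 0.53). YAP1 was called as well. The polyubiquitin gene UBI4, with a log2 fold change of 0.32 and an adjusted p of 0.145, has the motif and was not called.

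Other genes of the ubiquitin system were less uniform. In the list of Cdc48 and shuttle factors, which deliver substrates to the proteasome, 7 of 12 genes were called higher and 0 lower, with CUZ1, DDI1, UFD1 and CDC48 having the smallest adjusted p. Of 10 tested genes for ubiquitin activation and conjugation 3 were called higher (UBA1, UBC5 and UBC13), of 16 deubiquitinase genes 1 (OTU1), and of 13 ubiquitin ligase genes and 4 ubiquitin genes 0, with none lower in any of these lists. Of 6 further proteasome-related genes, TMC1, whose protein resembles Cuz1, was called higher at 91.6 and 78.8 CPM in CRN and 160.0 and 139 in CRN/PPN2 (log2 fold change 0.81 ± 0.13, adjusted p = 0.000726). Stress genes moved in the same comparison: 10 of 20 listed stress markers were called higher and 0 lower, their summed level was 3424 and 3721 CPM in CRN against 5109 and 5249 in CRN/PPN2, and the stress gene HSP12 rose from 89.3 and 73.5 to 874 and 663 CPM. Of 20 chaperone genes of the heat shock factor Hsf1, 4 were called higher. Their part in the result was not tested.

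The number of calls in YPD rested on all 4 YPD libraries, while the size of the change did not. With any 1 of the 4 YPD libraries left out, fewer proteasome genes were called. Fewer of all genes were called in the same fits, so the loss of calls was not particular to the proteasome genes. The median change of the proteasome genes stayed between 0.53 and 0.55 on the log2 scale. Without the replicate number in the model 14 proteasome genes were called. Over all genes 88 were called higher in that fit, against 224 in the main fit. ECM29, PRE3, RPT1 and SCL1 were called higher under every alternative.

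Levels of different genes were compared per kb of coding length. Counts were divided by the coding length alone, so part of the order may follow length, which was not tested. The coding length is 270 bases in SEM1 and 447 in UMP1, against 5607 in ECM29 and 6432 in BLM10. In CRN in YPD the median level was 274 CPM per kb of coding length in the core, 188 in the base, 200 in the lid, 83.3 in the assembly factors and 21.3 in the associated proteins, and RPN4 stood at 48.0 ± 3.57 (SD, n = 2). The core genes spanned 2.45-fold, from PUP1 at 164 ± 26.6 to PUP3 at 402 ± 10.1. In CRN/PPN2 in YPD they spanned 2.44-fold, a like range around a median of 439.6 CPM per kb. The base spanned 2.74-fold in CRN and 2.41-fold in CRN/PPN2. In the lid the highest level was that of SEM1, the gene of its smallest subunit, at 691 ± 164 in CRN and 999 ± 237 in CRN/PPN2. UMP1 was the highest of the assembly factors, at 198 ± 11.2 and 325 ± 5.60, and ECM29 the lowest of all 45 genes in CRN at 17.4 ± 1.21. With KOH in CRN/PPN2 the spans were wider, at 4.15-fold in the core, 4.27-fold in the base and 8.59-fold in the lid.

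**Figure D3:**
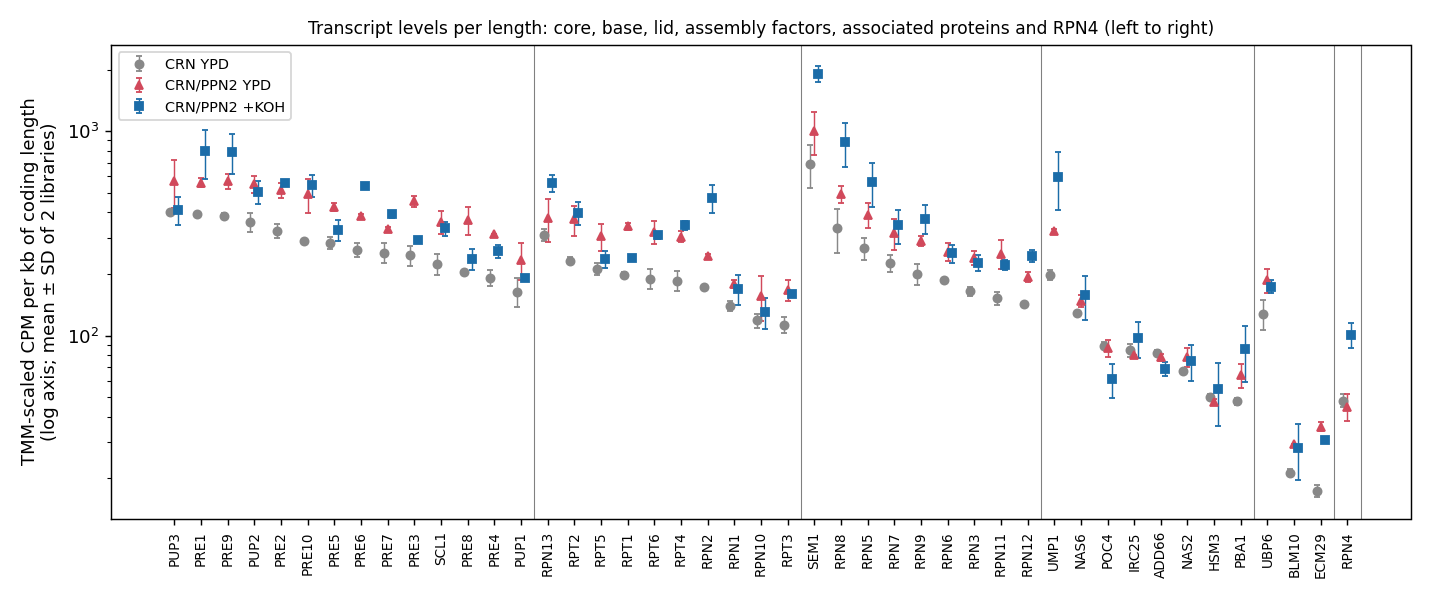
TMM-scaled CPM per kb of coding length (log axis, mean ± SD of 2 libraries) for the 45 genes in CRN YPD, CRN/PPN2 YPD and CRN/PPN2 +KOH. The CRN/PPN2 YPD points run above the CRN YPD points across core, base and lid, while the CRN/PPN2 +KOH points leave that order, with SEM1, RPN2 and UMP1 above and PRE3 and PRE8 nearer to CRN.

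The next comparison was of CRN grown with KOH for 40 h and in YPD for 16 h, in which KOH and the hours of culture cannot be told apart. The called changes were small and upward: 7 of the 45 genes were called higher and 0 lower, where 7.53% of all genes were called higher and 7.61% lower. The median change was 1.21-fold (log2 0.27), against 1.01-fold over all genes. Libraries with KOH lay above those in YPD for 36 genes and below for 3, against 30.7% and 26.1% of all genes, and 22 genes had an unadjusted p under 0.05. The called genes were PUP2, PRE10 and PRE2 of the core, RPT2 of the base, RPN8 and RPN9 of the lid, and ECM29. RPN8, a lid subunit that pairs with Rpn11, changed most, from 399 and 281 to 550.1 and 496 CPM (log2 fold change 0.64 ± 0.13, adjusted p = 0.00293). PRE2 went from 296 and 264 to 426 and 390.5 CPM (log2 fold change 0.54 ± 0.12, adjusted p = 0.00531). In both, the 2 libraries with KOH exceeded those in YPD. RPN4 was at 80.7 and 72.6 CPM in YPD and 103 and 100 with KOH, without overlap, and its adjusted p was 0.052 (log2 0.40). All 7 called genes are among the 32 with a PACE core, and 6 of the 7 hold the whole motif. Of the 13 genes without a core 0 were called, and of the 8 assembly factors 0. In sets this small, 0 is near the 7.53% of all genes called higher, so these counts do not separate the sets. No call in this comparison was kept under every alternative. With single libraries left out the number of calls changed, among the 45 genes and over all genes, and the median change was 0.20 to 0.28 on the log2 scale. Without both CRN/PPN2 +KOH libraries 21 of the 45 genes were called higher. Over all genes 691 were called higher in that fit, against 409 in the main fit.

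The strains were also compared with KOH in the medium. Of the 45 genes 19 were called higher and 1 lower, where 30.8% of all genes were called higher and 25.9% lower. The median change was 1.21-fold (log2 0.27), and CRN/PPN2 libraries lay above those of CRN for 30 genes and below for 2, against 38.3% and 35.8% of all genes. The called genes were 5 of 14 in the core (PRE9, PRE6, PRE10, PRE1 and PRE7), 5 of 10 in the base (RPT2, RPT4, RPT6, RPN2 and RPN13), 5 of 9 in the lid (RPN5, RPN8, RPN9, RPN12 and SEM1), the assembly factors UMP1 and PBA1, ECM29 and RPN4. The gene called lower was ADD66, with 71.7 and 76.1 CPM in CRN and 58.2 and 52.2 in CRN/PPN2 (log2 fold change -0.40 ± 0.16, adjusted p = 0.0422). PRE3 and PRE8, which had changed most in the core in YPD, had log2 fold changes of -0.004 and -0.05 here, with adjusted p of 0.981 and 0.767. Of the genes with a PACE core 14 of 32 were called higher (43.8%), and of those without 5 of 13 (38.5%). The call of ADD66 was lost without the replicate number in the model and with DESeq2.

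The comparison of KOH with YPD within CRN/PPN2 gave calls in both directions. Of the 45 genes 12 were called higher and 6 lower, where 29.2% of all genes were called higher and 25.5% lower. These shares, 12 and 6 of 45, were no larger than the background. The median was 0.978-fold (log2 -0.03), with log2 fold changes from -0.64 (PRE3) to 1.15 (RPN4). Their SD over the 33 subunits was 0.43, against 0.91 over all genes, and for KOH in CRN it was 0.12, against 0.45 over all genes, so the values of all genes spread more widely in CRN/PPN2 too. Libraries with KOH lay above those in YPD for 16 genes and below for 11, against 34.6% and 35.2% of all genes.

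**Figure D4:**
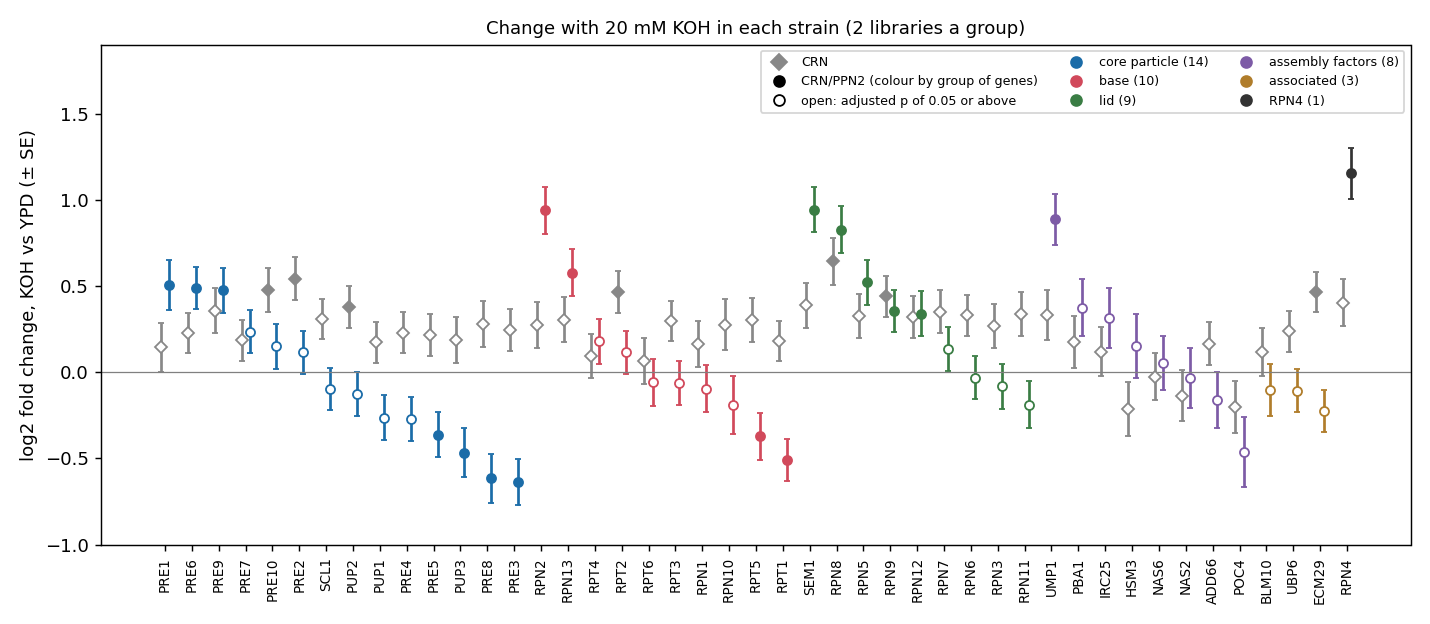
Log2 fold change of KOH against YPD with its SE (vertical axis) for the 45 genes (horizontal axis), as grey diamonds in CRN and coloured circles in CRN/PPN2; filled symbols had an adjusted p under 0.05. The diamonds lie mostly between 0 and 0.5, whereas the circles spread from -0.64 (PRE3) to 1.15 (RPN4) and do so within core, base and lid.

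The genes that fell were PRE8 and PRE5 (alpha subunits), PRE3 and PUP3 (beta subunits), and the ATPase genes RPT1 and RPT5. PRE3 had 173 and 147 CPM in CRN in YPD, 182 and 196 in CRN with KOH, 306 and 281 in CRN/PPN2 in YPD and 187 and 192 in CRN/PPN2 with KOH. Its level with KOH in CRN/PPN2 was thus back among the CRN values (log2 fold change -0.64 ± 0.13, adjusted p = 0.000563). PRE8 had 153 and 154 CPM in CRN in YPD, 174 and 199 in CRN with KOH, 307 and 246 in CRN/PPN2 in YPD and 194 and 164 in CRN/PPN2 with KOH, again with the KOH values of CRN/PPN2 within the range of CRN (log2 fold change -0.62 ± 0.14, adjusted p = 0.00148). RPT1 had 284 and 273 CPM in CRN in YPD, 323 and 309.8 in CRN with KOH, 494 and 467 in CRN/PPN2 in YPD and 340.4 and 336 in CRN/PPN2 with KOH (log2 fold change -0.51 ± 0.12, adjusted p = 0.00194). PUP3, RPT5 and PRE5 fell by 0.47, 0.37 and 0.36 on the log2 scale. Without CRN/PPN2 YPD replicate 1 the count of genes called lower was 2.

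The genes that rose were PRE9, PRE6 and PRE1 of the core, RPN2 and RPN13 of the base, RPN5, RPN8, RPN9, RPN12 and SEM1 of the lid, UMP1 and RPN4. RPN2 had 498 and 482 CPM in CRN in YPD, 593 and 593 in CRN with KOH, 704 and 681 in CRN/PPN2 in YPD and 1187 and 1479.8 in CRN/PPN2 with KOH. Both KOH libraries of CRN/PPN2 exceeded every other library (log2 fold change 0.94 ± 0.14, adjusted p = 1.61e-05). SEM1 had 218 and 155 CPM in CRN in YPD, 249 and 233 in CRN with KOH, 315 and 224 in CRN/PPN2 in YPD and 547 and 483 in CRN/PPN2 with KOH (log2 fold change 0.94 ± 0.13, adjusted p = 1.15e-05). UMP1 had 92.1 and 85.0 CPM in CRN in YPD, 119 and 104 in CRN with KOH, 143 and 147 in CRN/PPN2 in YPD and 327 and 207 in CRN/PPN2 with KOH (log2 fold change 0.89 ± 0.15, adjusted p = 6.1e-05), and in both genes the highest values were again those of CRN/PPN2 with KOH. RPN8 rose by 0.83, RPN13 by 0.58, and PRE1, PRE6 and PRE9 by 0.51, 0.49 and 0.47. PRE6, an alpha subunit, had 190.0 and 213 CPM in CRN in YPD, 235 and 236 in CRN with KOH, 289.7 and 299.8 in CRN/PPN2 in YPD and 414 and 411 in CRN/PPN2 with KOH (log2 fold change 0.49 ± 0.12, adjusted p = 0.00228). RPN5, a scaffold subunit of the lid, had 389 and 326 CPM in CRN in YPD, 466 and 427 in CRN with KOH, 573 and 470.1 in CRN/PPN2 in YPD and 883 and 621 in CRN/PPN2 with KOH (log2 fold change 0.52 ± 0.13, adjusted p = 0.00265). For both, as for RPN2, the KOH libraries of CRN/PPN2 were the highest. Calls in both directions fell within 1 subcomplex, as in the core with PRE9 higher and PRE8 lower, both alpha subunits. Among the beta subunits PRE1 was higher and PRE3 lower. The shares called were no larger than those of all genes, and the SD over the 33 subunits (0.43) was below that over all genes (0.91). Opposite calls are therefore not particular to these genes. Of the 13 genes without a PACE core 4 were called higher and 0 lower, and of the 32 with it 8 higher and 6 lower, near or below the 29.2% and 25.5% of all genes.

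Assembly factors other than UMP1 were not called for KOH in CRN/PPN2. PBA1 had 38.4 and 40.8 CPM in CRN in YPD, 40.1 and 49.5 in CRN with KOH, 48.0 and 58.5 in CRN/PPN2 in YPD and 55.7 and 86.6 in CRN/PPN2 with KOH, and the 2 KOH libraries of CRN/PPN2 lay far apart (log2 fold change 0.38 ± 0.17, adjusted p = 0.0673). POC4 had 40.9 and 38.9 CPM in CRN in YPD, 33.7 and 35.3 in CRN with KOH, 41.3 and 36.1 in CRN/PPN2 in YPD and 31.0 and 23.7 in CRN/PPN2 with KOH, the lowest values being those of CRN/PPN2 with KOH (log2 fold change -0.46 ± 0.20, adjusted p = 0.0636). The base chaperone HSM3 had 66.4 and 69.9 CPM in YPD and 60.1 and 98.4 with KOH, so its groups overlapped. NAS2, NAS6, IRC25 and ADD66 had log2 fold changes of -0.03, 0.05, 0.32 and -0.16. These genes are low, at 23.7 to 127 CPM in this comparison, and in the smaller KOH library few counts stand behind them. Of the associated proteins, ECM29, UBP6 and BLM10 had log2 fold changes of -0.22, -0.11 and -0.10, and none was called.

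RPN4 rose most among the 45 genes. It had 80.7 and 72.6 CPM in CRN in YPD, 103 and 100 in CRN with KOH, 64.2 and 79.3 in CRN/PPN2 in YPD and 146 and 177 in CRN/PPN2 with KOH. Both KOH libraries of CRN/PPN2 were above all others, 2.22-fold over YPD (log2 fold change 1.15 ± 0.15, adjusted p = 4.39e-06). In YPD the subunits were higher in CRN/PPN2 with no difference of RPN4 called, and with KOH RPN4 was higher in CRN/PPN2 while the 33 subunits summed to 13635 and 12676 CPM, against 12180 and 11016 in YPD. A few abundant genes such as RPN2 and RPN8 carry that larger sum: of the 33 subunits, 16 had a positive and 17 a negative log2 fold change, with a median of -0.03. CUZ1 and TMC1 rose too, from 204 and 184 to 471 and 309 CPM and from 160.0 and 139 to 506 and 333 CPM. Of the 6 further proteasome-related genes, TMC1 among them, 2 were called higher and 1 lower, where 29.2% and 25.5% of all genes were. Of the listed regulators of RPN4, MSN4, a stress transcription factor, was called higher with KOH in CRN/PPN2 (log2 0.44, adjusted p = 0.0304), at 92.6 and 105 CPM in YPD and 104 and 174 with KOH, so that the groups overlapped, and the other 5 were not called. Of the 4 ubiquitin genes 3 were called higher and 0 lower in this comparison, UBI4 by 0.63 on the log2 scale. Of the 12 Cdc48 and shuttle factor genes 1 was called higher (CUZ1) and 5 lower, among them SHP1 (-0.57) and UBX2 (-0.70), both encoding cofactors of Cdc48.

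**Figure D5:**
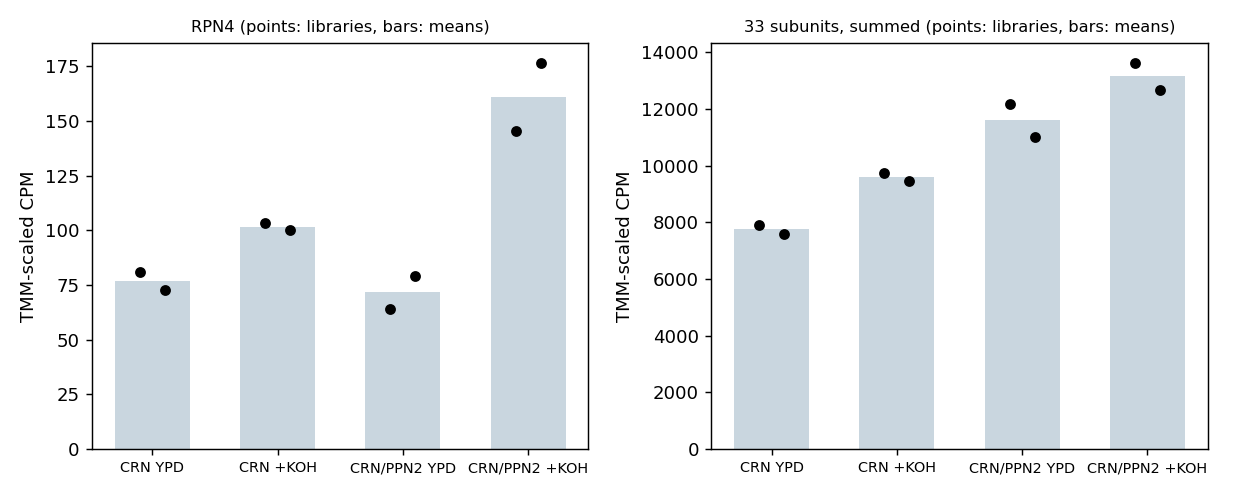
TMM-scaled CPM of RPN4 (left) and summed over the 33 subunits (right) in the 4 groups, with points for libraries and bars for means. RPN4 is at 64.2 to 80.7 CPM in the 4 YPD libraries and at 146 and 177 in CRN/PPN2 with KOH, while the subunits are already higher in CRN/PPN2 in YPD.

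Other values moved with the CRN/PPN2 KOH libraries, which enter both the comparison of strains with KOH and that of media in CRN/PPN2. Besides being the smallest, they had the largest SD between replicates over all genes, 0.31 on the log2 scale against 0.16 to 0.21 in the other groups. Of 5 tested markers of MATa cells 3 were called lower with KOH in CRN/PPN2, and the summed level of the listed MATa markers was 1363 and 1406 CPM in YPD against 948 and 683 with KOH. All 3 tested MATalpha markers and all 4 meiotic markers were called higher, but at low levels. Summed MATalpha markers were at 22.5 and 28.1 CPM in YPD and 68.3 and 81.8 with KOH, and MF(ALPHA)2 had 2 counts at most in any library. Summed meiotic markers were at 27.2 and 31.6 CPM in YPD and 62.6 and 98.4 with KOH. Of the 20 stress markers 10 were called higher and 5 lower. Their part in the result was not tested.

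Whether the difference between KOH and YPD cultures was unlike in the 2 strains was tested directly as an interaction. It was called for 14 of the 45 genes, 4 higher in CRN/PPN2 (RPN2, SEM1, UMP1 and RPN4) and 10 lower, where 22.2% and 17.6% of all genes were called, so that the genes called higher were below the background share and those called lower near it. The lower ones were PRE8, PUP2, PRE5, PRE3, PUP3 and PRE4 of the core, RPT1 and RPT5 of the base, RPN11 of the lid, and ECM29, 10 of the 32 genes with a PACE core. The largest were PRE8 (log2 fold change -0.90 ± 0.20, adjusted p = 0.00161), PRE3 (log2 fold change -0.88 ± 0.18, adjusted p = 0.000993) and, upward, RPN4 (log2 fold change 0.75 ± 0.20, adjusted p = 0.00663). PRE3, PRE8 and RPT1 were called in this test under every alternative. For ECM29, CRN rose with KOH (from 103 and 92.9 to 141 and 129 CPM) and CRN/PPN2 went from 208 and 194 to 175 and 171 (log2 fold change -0.69 ± 0.17, adjusted p = 0.00381). With single libraries left out the number of calls changed, among the 45 genes and over all genes. The median over the 45 genes was then -0.30 to -0.16, against -0.26 with all libraries. With upper quartile factors in place of TMM 2 genes were called higher and 18 lower, and over all genes 994 higher and 1240 lower, against 1203 and 953 with TMM.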

How the data were processed

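Messenger RNA of 8 libraries was sequenced with a strand-specific kit, 2 for each of 4 groups. According to the labels and methods, the authors aligned reads with STAR (2.7.6a) to yeast build R64 and deposited raw read counts per gene, which were used here as deposited. Which strand column of the counts was taken is not given in the sources used here. In the RefSeq annotation of R64 no gene of the 45 overlaps another annotated gene. The authors counted reads with an Ensembl annotation, in which overlaps were not checked.

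The proteasome genes, gene lists and motif were chosen with earlier results of these data known. All 45 genes may be named. Other genes are named from the lists, at most 4 per list with the smallest adjusted p in a comparison, and per-library values are given mainly for the 2 genes of each group with the smallest adjusted p in YPD, for RPN4 and for genes that went against their group. RPN8, PRE2, RPN2, SEM1, PRE6, RPN5 and POC4 were given in full after their values were seen.

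Genes at 10 CPM or more in at least 2 libraries were tested with edgeR (4.0.16; R 4.3.3) by its quasi-likelihood test with TMM factors in a model of 4 groups blocked by replicate number, and called at a Benjamini-Hochberg adjusted p under 0.05. Per the methods, libraries with the same number were prepared and sequenced together. Deviations of same-numbered libraries from their group means correlated with r of 0.0926 to 0.467 over the 6 pairs of groups. The SE is the log2 fold change over the square root of the F statistic and is approximate. Alternatives were no block, counts adjusted with ComBat-seq (sva 3.50.0), DESeq2 (1.42.0), other size factors and filters, thinning to the smallest library, fits of only the 4 libraries compared, and leaving out single libraries. The fitting code was tested on simulated data. Depth ranged from 796548 to 5004823 counts, and intervals of low genes in the smallest library are wider. Motifs were searched in RefSeq promoter windows of R64.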

Additional observations from a re-analysis of the deposited data

Results flagged for a closer look

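For 14 of the 45 proteasome genes the effect of KOH differed between the strains by the interaction test of edgeR. Over all genes tested 22.2% were called higher and 17.6% lower, so the 4 of 45 genes called higher were below the background share and the 10 called lower near it. A value is the log2 KOH effect in CRN/PPN2 minus that in CRN. Lower in CRN/PPN2 were the core genes PRE8 (-0.90), PRE3 (-0.88), PUP3 (-0.65), PRE5 (-0.58), PUP2 (-0.51) and PRE4 (-0.50), the base genes RPT1 (-0.69) and RPT5 (-0.68), the lid gene RPN11 (-0.53) and ECM29 (-0.69). Higher were RPN2 (0.67), SEM1 (0.55), UMP1 (0.55) and RPN4 (0.75). CRN/PPN2 cells with KOH were lysed in another way and harvested at another hour than the other groups, and their part in these differences cannot be told apart.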

How the results depend on the processing

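None of the 3870 alternative values of single proteasome genes reversed a call: 3388 stayed on their side of the threshold, 323 lost a call and 159 gained one. Calls kept under every alternative numbered 4 of 32 for the strains in YPD, 11 of 20 with KOH, 0 of 7 for KOH in CRN, 9 of 18 for KOH in CRN/PPN2 and 3 of 14 for the difference. Without the replicate block, 14 genes were higher in CRN/PPN2 in YPD (32 with it), 0 lower with KOH, 1 higher for KOH in CRN, and 2 higher and 5 lower for the difference. Counts from ComBat-seq gave 16 higher for KOH in CRN, 10 lower for KOH in CRN/PPN2 and 17 lower for the difference. DESeq2 gave 0 lower with KOH. Upper quartile factors, which moved the median of all genes by -0.11 for KOH in CRN/PPN2, gave medians of 0.16 (strains with KOH), -0.13 (KOH in CRN/PPN2) and -0.37 (difference), 10 lower for KOH in CRN/PPN2, and 2 higher and 18 lower for the difference. Without the filter those first medians were 0.20 and -0.11. Thinning to the smallest library gave 0 lower with KOH, 4 higher for KOH in CRN, and 1 higher and 5 lower for the difference. The 4 libraries alone gave 0 lower with KOH and 24 higher for KOH in CRN, where 874 of all genes were called higher. Without both CRN/PPN2 +KOH libraries 21 were higher for KOH in CRN, and 691 of all genes. The causes were not tested. Leaving out 1 library gave 6 to 37 genes higher in YPD, 0 to 1 lower with KOH (median 0.27 to 0.37), 0 to 22 higher for KOH in CRN (median 0.20 to 0.28), 2 to 8 lower for KOH in CRN/PPN2 (median -0.048 to 0.12), and 0 to 5 higher and 5 to 13 lower for the difference (median -0.30 to -0.16). With the core of the motif 2.39% of all promoters matched, and with a window of 500 bases, chosen after seeing the data, 1.64% held the whole motif. The smallest library, at 796548 counts, limits what can be seen for the low assembly factors.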
